A study of Mus musculus with 13 samples.

Results

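Gene expression in the gastrocnemius muscle of the 5 semaglutide-treated mice was examined for the genes that varied together from mouse to mouse. These 5 libraries, of 13 in the series, are all those labelled semaglutide plus placebo, and the mice are named by the numbers in their labels, 13 to 17. Of the 21868 genes listed, the 10077 with a mean normalized count of at least 50 over these 5 mice were analysed, and no treatments were compared. At the edge of that rule, Fv1 (mean 50.03) and Mrpl23 (50.03) were among the last genes included, and Tctex1d2 (49.99), Pakap (49.91) and Ormdl2 (49.87) the first left out.

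The series addressed whether a ketone ester preserves the muscle of obese mice given semaglutide, a GLP-1 receptor agonist that lowers appetite and body weight. The animals were male C57BL/6 mice (C57BL/6N for the sequenced muscles), 7 weeks old on arrival and acclimatized before the diet, made obese on food with 60% of its calories from fat for 15 to 17 weeks, and then returned to chow. The 5 mice described here received semaglutide by daily intraperitoneal injection at 30 nM/kg for 3 weeks, with placebo in place of the ketone ester; the other groups were vehicle with placebo (n = 5) and semaglutide with ketone ester (n = 3). Sex, diet, treatment and muscle were thus shared by all 5 mice, and their labels name nothing but the mouse number that sets one apart from another.

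The 5 libraries held 15319471 to 23498162 reads on genes. Each was dominated by the transcripts of fast muscle: Myh4, the myosin heavy chain of the fastest mouse fibres, took 3.20% to 6.27% of the reads, and skeletal alpha-actin (Acta1) 1.82% to 3.13%. The values are normalized counts, reads divided by a size factor for each library, and are not per transcript length, so levels were compared between mice and not between genes. Each library is from whole muscle tissue, in which fewer cells of a type and less RNA per cell cannot be told apart. Spread is given as the standard deviation (SD) over the 5 mice of log2(normalized count + 1), on which scale 1 unit is a doubling.

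Muscle protein is broken down mainly by the ubiquitin-proteasome system and by autophagy. The muscle-restricted ubiquitin ligases Fbxo32 (atrogin-1) and Trim63 (MuRF1) are induced by fasting, glucocorticoids, inactivity and loss of insulin signalling, largely through FoxO transcription factors, which insulin and IGF-1 restrain. The same states shift muscle from glucose to fatty acids, and Pdk4, a kinase that blocks the entry of pyruvate into mitochondria, is a usual marker of that shift.

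Promoter sequences of 3 genes of opposite patterns are shown, Trim63 and Pdk4 on one side and Igfbp5 on the other. Pdk4 and Igfbp5 had some of the largest SDs in the 2 largest clusters described below. Trim63, an atrophy ligase, was at place 13 by SD in the cluster of Pdk4. They are the RefSeq windows of 300 bases (250 before to 50 after the transcript start, build GRCm38.p6), printed 5′ to 3′ on the strand of the gene. Capitals mark matches on either strand to GTAAACA, the core that FoxO factors bind, to the E-box CACGTG, to the cAMP response element TGACGTCA, or to TATAAA.
Trim63, chr4:134314870-134315169, plus strand: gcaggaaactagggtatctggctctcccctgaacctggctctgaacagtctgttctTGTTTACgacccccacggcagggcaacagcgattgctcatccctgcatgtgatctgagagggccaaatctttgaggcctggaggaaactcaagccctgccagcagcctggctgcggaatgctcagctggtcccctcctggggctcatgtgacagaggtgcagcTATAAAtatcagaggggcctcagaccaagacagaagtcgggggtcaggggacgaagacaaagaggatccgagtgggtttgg
Pdk4, chr6:5496229-5496528, minus strand: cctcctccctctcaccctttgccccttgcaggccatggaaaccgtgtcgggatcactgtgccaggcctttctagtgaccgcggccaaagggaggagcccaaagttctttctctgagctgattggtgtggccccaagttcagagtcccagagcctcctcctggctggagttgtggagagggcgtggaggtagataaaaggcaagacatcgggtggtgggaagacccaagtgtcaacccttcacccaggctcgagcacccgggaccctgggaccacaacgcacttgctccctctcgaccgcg
Igfbp5, chr1:72874816-72875115, minus strand: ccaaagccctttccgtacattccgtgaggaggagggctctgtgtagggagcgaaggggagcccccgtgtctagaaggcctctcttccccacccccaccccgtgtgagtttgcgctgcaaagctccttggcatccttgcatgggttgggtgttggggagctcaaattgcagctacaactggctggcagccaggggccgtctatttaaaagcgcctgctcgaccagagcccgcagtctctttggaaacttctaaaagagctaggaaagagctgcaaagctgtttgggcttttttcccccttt
The Trim63 window held GTAAACA (as its reverse complement) and TATAAA, which did not overlap, and neither of the other motifs. The Pdk4 and Igfbp5 windows held none of the 4. Neither did the windows of Acot2 (SD 1.95) and Depp1 (SD 1.795), which are not shown. Both genes lay in the cluster of Trim63 and had larger SDs than Trim63 (1.48). Over all 32851 promoter windows, 3.65% held GTAAACA, 7.15% CACGTG, 1.79% TGACGTCA and 13.6% TATAAA. Of the 10 genes whose pattern over the mice was nearest to that of Fbxo32, 8 had windows, 14 in all, of which 0 held GTAAACA, 1 CACGTG, 0 TGACGTCA and 3 TATAAA. These matches describe the letters of the windows and no binding.

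The mice differed by far more than read counting allows. Reads of 8424 of the 10077 genes (83.6%) varied beyond counting error at an adjusted p under 0.05 (chi-square test of homogeneity of the reads recovered for the 5 libraries, Benjamini-Hochberg over all 10077 genes). This test compares these libraries, not conditions, and measures only whether they differ by more than counting. The median SD was 0.23 (quartiles 0.16 and 0.34), against 0.077 from counting alone, and the median coefficient of variation was 15.5%. An SD of at least 0.5 was found in 988 genes, 9.8% of those tested, and these are called variable genes below; 169 reached an SD of 1. The highest mouse exceeded the lowest at least 2-fold in 1740 genes and at least 10-fold in 84.

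**Figure D1:**
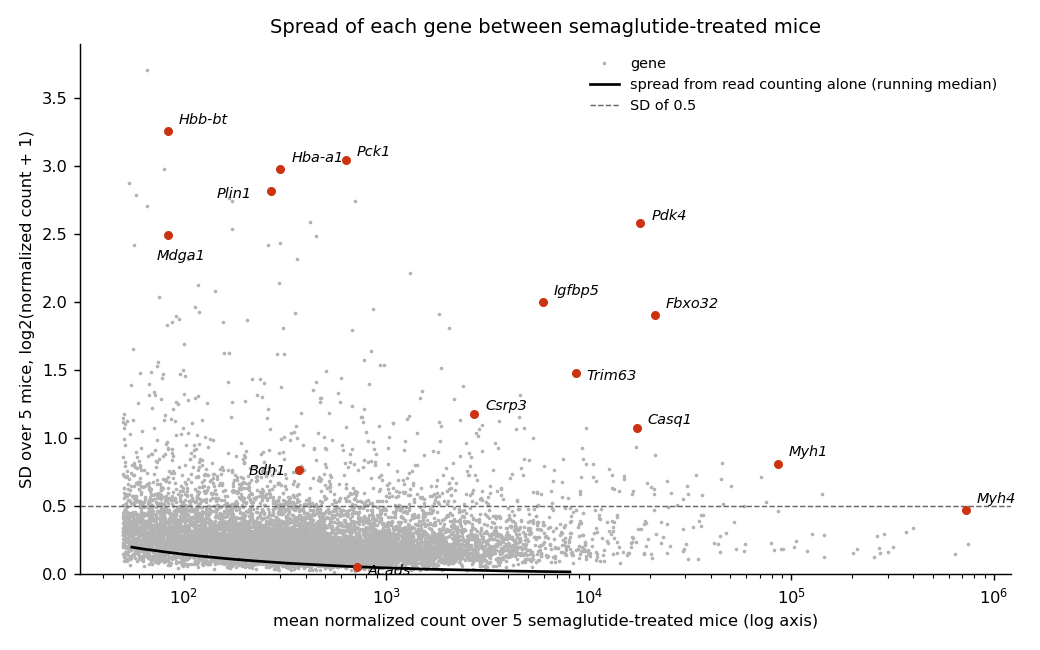
SD over the 5 semaglutide-treated mice of log2(normalized count + 1) against the mean normalized count (log axis), 1 point per gene for 10077 genes; the black line is the running median of the spread that read counting alone gives and the dashed line an SD of 0.5. Abundant genes such as Pdk4 (SD 2.58) and Fbxo32 (SD 1.90) lay far above the counting line, and Acads (SD 0.05) lay on it.

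Mice 13 and 16 stood apart from the others. Over all 10077 genes the SD of a mouse's log2 differences from the group mean was 0.45 in mouse 13 and 0.39 in mouse 16, and 0.28, 0.26 and 0.23 in mice 14, 15 and 17. Mouse 13 was the highest of the 5 in 30.6% of the genes and the lowest in 29.7%, whereas mouse 16 was the highest in 16.6% and the lowest in 34.7%. The counts for mouse 16 depended on the scaling: with columns rescaled to equal totals, which moved the median of all genes in mouse 16 by 0.20 on the log2 scale, it was the highest in 4364 genes and the lowest in 1045. Without mouse 13 the number of variable genes was 549, and without mouse 16 it was 897.

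A principal component analysis of the gene-centred log2 values placed 53.2% of the variance on component 1 and 25.2% on component 2. Scores on component 1 were -41.9 in mouse 13, -8.26 in mouse 14, 6.35 in mouse 15, 29.5 in mouse 16 and 14.3 in mouse 17. Mice 13 and 16 thus lay at its ends, with the other 3 between them. Hbb-bt, Gm4841, Mdga1, Igfbp5 and Fbxl22 were among its 6 most negative loadings, and its 6 most positive belonged to Slc15a2, Pdk4, Angptl4, Pck1, Acot1 and Fbxo32. On component 2 the scores were 14.4, -12.8, -18.1, 24.9 and -8.45 in mice 13 to 17, and the fat cell genes Nnat, Lep, Plin1, Hp and Cidec were among the 6 most positive loadings. Component 3 (15.0%) set mouse 14 (23.4) apart from mouse 15 (-13.0), and component 4 (6.56%) set mouse 17 (14.9) apart from mouse 15 (-11.2).

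**Figure D2:**
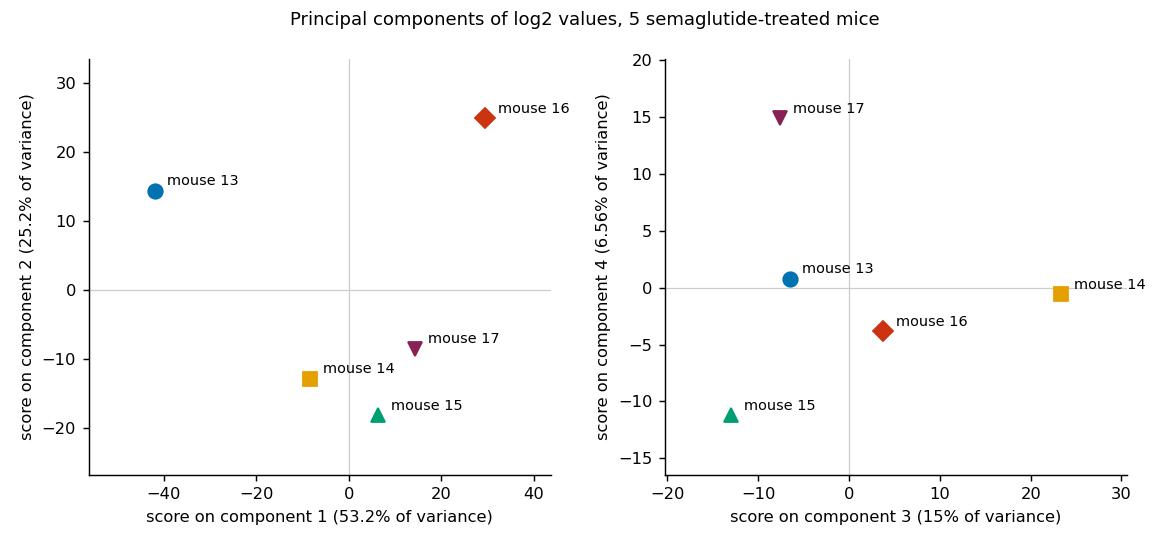
Scores of the 5 semaglutide-treated mice on principal components 1 and 2 (left) and 3 and 4 (right), 1 point per mouse, with the share of variance of each component on its axis. Mouse 13 (-41.9) and mouse 16 (29.5) lie at opposite ends of component 1, and both lie above 0 on component 2.

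When the 988 variable genes were grouped by the shape of their profile over the mice (Ward clustering of standardized values), 6 clusters of 361, 251, 206, 71, 68 and 31 genes resulted. Cluster 1 was high in mouse 13 (343 of 361 genes highest there), cluster 2 low in mouse 13 (235 of 251 lowest there) and cluster 3 high in mouse 16 (205 of 206 highest there). Cluster 4 was low in mouse 15 (46 of 71 genes lowest there). In cluster 5, 42 of 68 genes were highest in mouse 14 and 56 lowest in mouse 13, and cluster 6 was mixed, with 16 genes highest in mouse 17 and 12 in mouse 15. The clusters were made from these same values, so they describe the 5 mice and were not tested.

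**Figure D3:**
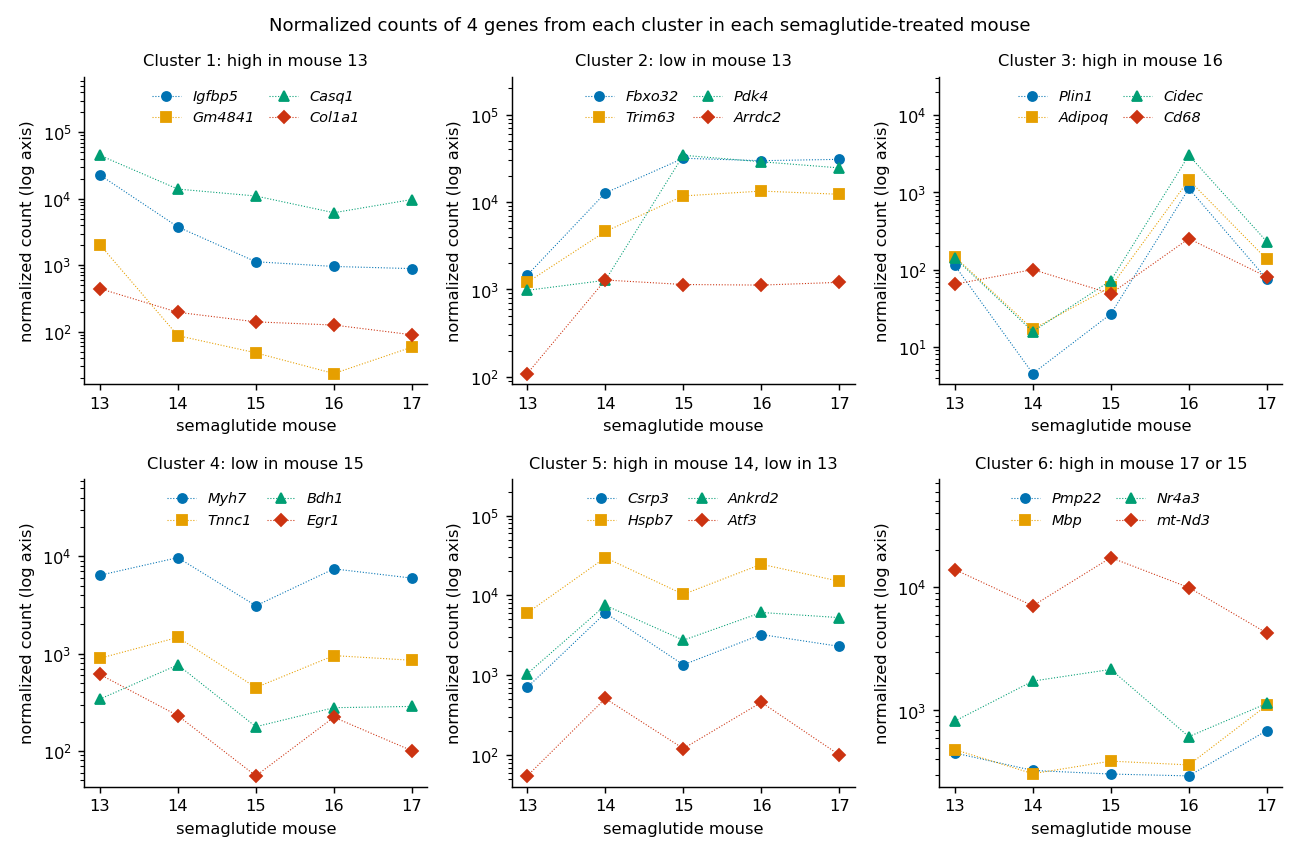
Normalized counts (log axis) of 4 genes from each of the 6 clusters in semaglutide mice 13 to 17, 1 point per mouse; dotted lines join the points of a gene and mark no order among mice. Pdk4 stays near the level of mouse 13 in mouse 14 whereas Arrdc2 does not, and the adipocyte genes of cluster 3 reach their highest level in mouse 16.

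Cluster 2 held 3 of the 15 listed atrophy ligases, among them Fbxo32 and Trim63, which were the most variable of that list. Fbxo32 (chr15:58175879-58214932, minus strand, mm10) was at a normalized count of 1460 in mouse 13, 12699 in mouse 14, 31652 in mouse 15, 29676 in mouse 16 and 30758 in mouse 17. Its level was thus lowest in mouse 13, intermediate in mouse 14 and nearly equal in mice 15, 16 and 17, with a 21.7-fold range and a group mean of 21249 ± 13550 (SD, n = 5). Trim63 (chr4:134315120-134329629, plus strand, mm10), whose promoter is the only one of the 3 above with a GTAAACA, was at 1206 in mouse 13, 4600 in mouse 14, 11735 in mouse 15, 13333 in mouse 16 and 12256 in mouse 17. The same 3 mice were on top and the range was 11.1-fold. Without mouse 13 the SD of Fbxo32 was 0.64 in place of 1.90 and that of Trim63 0.72 in place of 1.48, so both stayed above 0.5 among the other 4 mice.

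The other ubiquitin ligases of atrophying muscle spanned much narrower ranges. Of 15 on the list, 4 were variable (Fbxo32, Trim63, Fbxo21 and Trim55), where 9.8% of all genes were. Fbxo21, an F-box ligase also known as SMART, was at 204, 257, 434, 491 and 434 in mice 13 to 17. Trim55 (MuRF2), a sarcomere-bound relative of MuRF1, was at 1306, 764, 636.5, 494 and 682 in the same mice. Fbxo21 thus put mouse 13 lowest and Trim55 put it highest. Fbxo30 (MUSA1) had an SD of 0.23, with levels of 203, 202, 243, 292 and 259.6. Fbxo40, a muscle-restricted F-box protein, had an SD of 0.265, with levels of 7543, 9837, 8045, 6264 and 6422. Asb2, a ligase adaptor that limits muscle mass, had an SD of 0.35, with levels of 9322, 14843, 16852, 10982 and 13973. The smallest spread of the list belonged to Mdm2, the ligase of p53, with an SD of 0.17 and levels of 1131, 1109, 993, 872 and 912.

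The genes nearest to Fbxo32 in standardized profile, by root mean square distance over the 5 mice, were Klhl38, Npc1, Daxx, Cep131, Sqstm1, Acadl, Tgif1, Retsat, Bnip3 and Ccn1, at distances of 0.038 to 0.11 SD units. All 10 were lowest in mouse 13 and next lowest in mouse 14. Klhl38, a kelch protein abundant in muscle and encoded near Fbxo32 (chr15:58314573-58324169, minus strand, mm10), was at 122 in mouse 13, 1151 in mouse 14, 2866 in mouse 15, 2355 in mouse 16 and 2608 in mouse 17. Npc1, which exports cholesterol from lysosomes, was at 707, 2125, 3742, 3648 and 3709 in mice 13 to 17. Sqstm1 (p62), which carries ubiquitinated cargo into autophagosomes, was at 7626, 14754, 21250, 18978 and 20016. In these 3 genes mouse 15 was highest, as it was in Fbxo32. Retsat, a retinol saturase, was at 476, 942, 1457, 1453 and 1399. Ccn1, a matricellular protein, was at 250.5, 772, 1364, 1600 and 1424, with mouse 16 highest. The transcriptional regulator Daxx was at 233, 423, 538, 523 and 512, the centrosomal protein gene Cep131 at 116, 234, 293, 279.7 and 291 and the homeodomain repressor Tgif1 at 65.8, 180.3, 253, 258 and 233. Exactly the same order of the mice as Fbxo32 was found in 319 genes (3.17%), and the exactly opposite order in 142. Of the listed fatty acid oxidation genes, 7 of 25 had the Fbxo32 order, as did 4 of 27 autophagy genes and 3 of 17 FoxO genes.

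FoxO factors and their targets, a list that holds some of the genes above, had the same low mice. Of 17 measured, 9 were variable (9.8% of all genes were), 8 of them in cluster 2. Lowest in mouse 13 and next lowest in mouse 14 were 13, where 13.0% of all genes were. The list score, the mean over members of the log2 difference from the group mean, was -0.93 in mouse 13, -0.35 in mouse 14, 0.47 in mouse 15, 0.40 in mouse 16 and 0.41 in mouse 17. Mouse 13 and, to a lesser degree, mouse 14 were low, and the other 3 were alike. Foxo1, a main factor of the family, had an SD of 0.33, with levels of 621, 673, 842, 809.9 and 1122 in mice 13 to 17. Foxo3, its partner, had an SD of 0.26, with levels of 775, 867, 1152, 985 and 1186. Both were lowest in mouse 13 and next lowest in mouse 14. Depp1, a FoxO-induced protein of fasting, was at 82.2 in mouse 13, 153 in mouse 14, 1079 in mouse 15, 1394 in mouse 16 and 682 in mouse 17. Eif4ebp1 (4E-BP1), which holds back cap-dependent translation, was at 772, 3467, 4047, 4713 and 5033 in mice 13 to 17. Sesn1 (sestrin 1), a brake on mTORC1, was at 277, 612, 1273, 1694 and 1579. In Depp1 mouse 14 lay beside mouse 13, and in Eif4ebp1 it lay near the other 3. The lysosomal protease Ctsl was at 1231, 1750, 3527, 3639 and 3639. Txnip, which limits glucose uptake, was lowest in mouse 14 instead, at 6089, 4987, 11084, 12898 and 10159. Sesn3 was highest in mouse 13, at 536, 397, 324, 209 and 287. Irs2, the insulin receptor substrate, had the smallest spread of the list (SD 0.20). Without mouse 13 the spread of the list score was 0.39 in place of 0.62.

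Autophagy genes and proteasome subunits put mouse 13 lowest over a narrower range. Of 27 autophagy genes 3 were variable (Sqstm1, Bnip3 and Gabarapl1), or 11.1%, near the 9.8% of all genes. Lowest in mouse 13 were 14 of them, where 29.7% of all genes were. Gabarapl1, which coats the autophagosome, was at 495, 1280, 1600, 2035 and 1653 in mice 13 to 17. Bnip3, a mitophagy receptor, was at 2549, 5036, 6437, 6440 and 7163. Atg3, the conjugating enzyme of the same system, did not vary beyond counting error (adjusted p = 0.61, chi-square test of the recovered reads). Of 36 proteasome subunits 2 (5.56%) were variable, a share under that of all genes, and 23 were lowest in mouse 13. The proteasome score was -0.22 in mouse 13 and between -0.0023 and 0.11 in the other 4. Psmd14, a deubiquitinase of the lid, had the smallest spread of the subunits, at 889.7, 953, 841, 875 and 939.9.

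Genes of fatty acid use were low in the same mice. Of 25 measured, 10 were variable, 22 were lowest in mouse 13, and 18 were lowest in mouse 13 and next lowest in mouse 14. Over all genes these shares were 9.8%, 29.7% and 13.0%. The list score was -0.85 in mouse 13, -0.31 in mouse 14, 0.34 in mouse 15, 0.44 in mouse 16 and 0.38 in mouse 17. Pdk4 (chr6:5483351-5496309, minus strand, mm10) was at 978 in mouse 13, 1273 in mouse 14, 34233 in mouse 15, 28847 in mouse 16 and 24557 in mouse 17. Mice 13 and 14 lay close together and far below the other 3, with a 35-fold range over the group. The mitochondrial thioesterase Acot2 had the profile nearest to Pdk4, at 104 in mouse 13, 125 in mouse 14, 1427 in mouse 15, 1425 in mouse 16 and 1237 in mouse 17. Its neighbour and near copy Acot1 was at 26.1, 128.5, 436.5, 560.3 and 622 in mice 13 to 17, and reads may be divided between the pair. Angptl4, a secreted inhibitor of lipoprotein lipase, was at 22.2 in mouse 13, 15.8 in mouse 14, 333 in mouse 15, 626 in mouse 16 and 313 in mouse 17. Here mouse 14 was the lowest, just under mouse 13, and the other 3 did not overlap with them. Ucp3, a mitochondrial carrier induced by fatty acids, was at 1072, 429, 4256, 2666 and 3525 in mice 13 to 17, again lowest in mouse 14.

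Among fatty acid carriers and droplet proteins, Plin5 and Cd36 placed mouse 14 between mouse 13 and the rest. The lipid droplet protein Plin5 was at 73.5, 214, 595, 704 and 671 in mice 13 to 17. Cd36, the fatty acid transporter, was at 2359, 4632, 6104, 10443 and 6708. Fabp3, the cytosolic carrier of muscle, was at 1618, 5142, 6197, 6532 and 5741, with mouse 14 near the rest. Lpl was at 4166, 12511, 9433, 13849 and 12620, with mouse 14 above mouse 15. Mouse 13 was lowest in each, and mouse 16 highest. Acadl, the long-chain dehydrogenase, was at 2700, 6313, 8456, 7672 and 8203. Acads, which acts on short chains, was at 712, 722, 699, 707 and 763 and did not vary beyond counting error (adjusted p = 0.39, chi-square test of the recovered reads). Cd36 and Lpl are also expressed by fat cells, whose markers were highest in mouse 16, as given below, and the part of fat cells in these values was not tested. The spread of the list score was 0.56, and 0.35 without mouse 13.

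Within cluster 2 the genes differed in where they placed mouse 14. For the 235 genes lowest in mouse 13, its place was expressed as a percentage of the log2 range from mouse 13 (0%) to the highest mouse (100%). The median place was 59.5%, with 16 genes under 25%, 157 from 25% to 75% and 62 above 75%. Acot2 (6.86%), Pdk4 (7.43%), the p53 and stress target Gadd45a (17.5%) and Depp1 (21.9%) kept mouse 14 beside mouse 13. Sesn1 (43.8%), Trim63 (55.7%), Bnip3 (65.9%) and Fbxo32 (70.3%) put it between. Fkbp5, Klf15, Glul and Arrdc2 were highest of all in mouse 14 (100%). By list, the median place was 43.8% for the 7 FoxO genes of this set, 51.3% for its 8 fatty acid oxidation genes and 100% for its 8 glucocorticoid-responsive genes, of which 7 were above 75%. The lists share members, and the percentages are descriptions of 1 mouse.

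**Figure D4:**
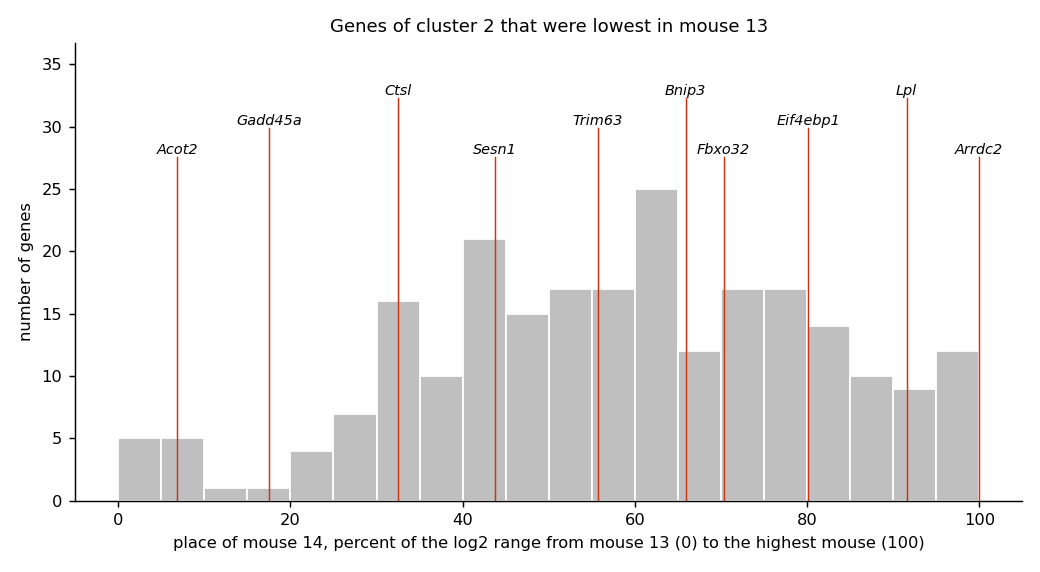
Histogram of the place of mouse 14 on the log2 range from mouse 13 (0%) to the highest mouse (100%) for the 235 genes of cluster 2 that were lowest in mouse 13; the vertical axis is the number of genes in equal bins and red lines mark named genes. Acot2 (6.86%) lies at the left end, Fbxo32 (70.3%) right of the middle and Arrdc2 (100%) at the right end.

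Glucocorticoid-responsive genes set mouse 13 apart from the other 4. Of 18 measured, 13 were variable and 13 were lowest in mouse 13, but in only 1 was mouse 14 next. Over all genes these shares were 9.8%, 29.7% and 13.0%. The list score was -1.09 in mouse 13, 0.082 in mouse 14, 0.26 in mouse 15, 0.57 in mouse 16 and 0.18 in mouse 17. Arrdc2, an arrestin-domain protein, was at 109 in mouse 13, 1282 in mouse 14, 1139 in mouse 15, 1122 in mouse 16 and 1206 in mouse 17. The other 4 mice thus lay between 1122 and 1282, and mouse 13 far below. Glul (glutamine synthetase), which muscle uses to export nitrogen, was at 3538, 12415, 9173, 10192 and 10375 in mice 13 to 17. Klf15, a transcription factor of amino acid and lipid catabolism, was at 357, 1160, 1117, 961 and 1124. Fkbp5, a co-chaperone of the glucocorticoid receptor, was at 1318, 3339, 2941, 2927 and 2673. In all 3 the other mice did not overlap with mouse 13 and mouse 14 was the highest. Cebpd, a leucine zipper factor, was at 131.5, 443, 1075, 1459 and 998, with mouse 14 between. Tsc22d3 (GILZ), a frequently used glucocorticoid target, did not follow: it had the smallest spread of the list (SD 0.15), at 3808, 3560, 4179, 3551 and 3155, with mouse 13 second highest. The spread of the list score was 0.63, and 0.21 without mouse 13.

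The p53 and integrated stress response lists, which share members with those above, were also low in mouse 13. Of 13 p53 targets 7 were variable and 9 were lowest in mouse 13, where 9.8% and 29.7% of all genes were. Eda2r, a TNF-family receptor of atrophying muscle, was at 245 in mouse 13, 1036 in mouse 14, 1691 in mouse 15, 2275 in mouse 16 and 2284 in mouse 17. Cdkn1a (p21), the cell cycle inhibitor, was at 220.5, 950, 748, 1299 and 841 in mice 13 to 17. Eda2r put mouse 14 between mouse 13 and the rest, and Cdkn1a put it among them. Of 15 integrated stress response genes 9 were variable and 11 were lowest in mouse 13. Chac1, which degrades glutathione, was at 190.5 in mouse 13, 723.5 in mouse 14, 4140 in mouse 15, 2211 in mouse 16 and 2937 in mouse 17. Psat1, of serine synthesis, was at 32.9, 55.2, 37.8, 246 and 60.4 in mice 13 to 17. Ddit4 (REDD1), which inhibits mTORC1, was at 78.3, 311, 404, 1092 and 295. Chac1 was highest in mouse 15, and Psat1 and Ddit4 were highest in mouse 16. Psat1 passed the filter only through mouse 16, so being highest there was fixed by the filter for that gene. Slc15a2, a peptide transporter with the largest positive loading on component 1, had 2 reads in mouse 13, and its levels were 1.93, 109, 374, 158 and 196.

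Cluster 1 was high where cluster 2 was low, in mouse 13. Igfbp5, an IGF-binding protein of muscle and matrix (chr1:72857932-72874884, minus strand, mm10), was at 22891 in mouse 13, 3772 in mouse 14, 1126 in mouse 15, 956.5 in mouse 16 and 888 in mouse 17. Mouse 13 was thus 25.8-fold above the lowest mouse, with mouse 14 next and the other 3 alike. Without mouse 13 its SD was 0.98 in place of 2.00. The nearest profile was that of Srebf1, a driver of fatty acid synthesis, at 6338, 1920, 889.8, 809.9 and 806 in mice 13 to 17. Scd2, one of its desaturase targets, was at 2148, 585, 309, 297 and 478. Both put mouse 13 first and mouse 14 second, as Igfbp5 did. Gm4841, a predicted gene, was at 2041 in mouse 13, 86.8 in mouse 14, 47.8 in mouse 15, 23.3 in mouse 16 and 58.2 in mouse 17. Mdga1, a cell surface glycoprotein, was at 382, 10.1, 15.55, 3.88 and 6.71 in mice 13 to 17. In both genes mouse 13 was alone at the top, although Mdga1 passed the filter only through mouse 13. Fbxl22, a sarcomeric F-box protein, was at 357, 57.5, 33.3, 13.6 and 14.9, and Nrep, a protein of regenerating tissue, at 633.5, 63.1, 45.5, 47.6 and 49.2. Fbxl22, like Mdga1, passed the filter only through mouse 13, so being highest there was fixed by the filter for both.

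Genes of fast fibres and glycolysis were also high in mouse 13. Of 13 fast-fibre genes 6 were variable, 8 were highest in mouse 13 and 11 lowest in mouse 16. Over all genes these shares were 9.8%, 30.6% and 34.7%. Casq1, the calcium store of fast fibres, was at 45263 in mouse 13, 14010 in mouse 14, 11015 in mouse 15, 6167 in mouse 16 and 9758 in mouse 17. Pvalb (parvalbumin), their calcium buffer, was at 93017, 35197, 46270, 19840 and 33226 in mice 13 to 17. Mouse 13 was highest and mouse 16 lowest in both. Myh4 was at 1125064, 568665, 772024, 476031 and 708779. Myh1, of the intermediate 2X fibres, was at 32406, 113920, 61692, 134139 and 86015. The order of the mice in Myh1 was the exact reverse of that in Myh4. The ratio of Myh4 to Myh1 within a mouse was 34.7 in mouse 13, 4.99 in mouse 14, 12.5 in mouse 15, 3.55 in mouse 16 and 8.24 in mouse 17. Of 13 glycolysis genes 7 were variable, 7 were highest in mouse 13 and 11 lowest in mouse 16. Pfkfb3, which raises glycolytic flux, fell in cluster 2 instead, at 2606, 912, 9965, 3102 and 6268, highest in mouse 15. Gpi1, an enzyme of the pathway itself, had the smallest spread of the list, at 16128, 15568, 16779, 13126 and 17310. Without mouse 13 the spread of the fast-fibre score was 0.24 in place of 0.30 and that of the glycolysis score 0.30 in place of 0.34.

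Matrix genes were highest in mouse 13 and lowest in mouse 17. Of 20 collagens measured (of 44 in the table) 11 were variable (9.8% of all genes were). Of the 20, 14 were highest in mouse 13 (30.6% of all genes were) and 13 lowest in mouse 17 (11.4%). Col1a1, of the main fibrillar collagen, was at 444 in mouse 13, 195 in mouse 14, 140 in mouse 15, 125 in mouse 16 and 89.5 in mouse 17. Col1a2, its partner chain, was at 736, 258, 202, 208 and 169 in mice 13 to 17. Mouse 13 was highest in both. Of 7 fibroblast markers 5 were highest in mouse 13 and 5 lowest in mouse 17, although Dcn (decorin), the most abundant of them, was at 4866, 3924, 4876, 4893 and 5018, lowest in mouse 14. Of 8 tendon markers 3 passed the filter, and those 3 were highest in mouse 13 and lowest in mouse 17. Fmod (fibromodulin), a collagen-binding proteoglycan, was at 1463 in mouse 13, 801 in mouse 14, 382 in mouse 15, 288 in mouse 16 and 247 in mouse 17. The tendon transcription factor Scx was at 178, 121, 94.4, 67 and 55.2 in mice 13 to 17. Thbs4, a matrix thrombospondin, was at 1027, 817, 549, 571 and 436. Fmod and Scx had the order of Col1a1. Tnmd, which defines tendon cells, was below the filter at 27.1, 9.02, 9.997, 1.94 and 4.48, and Chad at 123, 28.2, 4.44, 7.77 and 12.7, both also highest in mouse 13. Summed normalized counts of the fibroblast markers were 6851, 5102, 5774, 5886 and 5685 in mice 13 to 17. For the 3 tendon markers the sums were 2668, 1739, 1025, 926 and 738.5, and the part that tendon in a sample has in the collagen values was not tested. The collagen score had a spread of 0.44, and of 0.19 without mouse 13.

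Several genes of the circadian clock set mouse 13 apart. Dbp, a transcription factor with a strong daily rhythm, was at 1272 in mouse 13, 292 in mouse 14, 288 in mouse 15, 285.5 in mouse 16 and 364 in mouse 17. Mouse 13 thus lay above 4 mice that ranged from 285.5 to 364. Hlf, of the same family, was at 473, 266, 194, 172 and 227 in mice 13 to 17. Nr1d1 (REV-ERB alpha), a repressor of the loop, was at 2951, 1537, 1083, 1604 and 1478. Per1, which is both a clock and a glucocorticoid-responsive gene, was at 299, 1184, 922, 1161 and 1552. Hlf and Nr1d1 were highest in mouse 13 and Per1 was lowest there. Clock itself had the smallest spread of the list, at 618, 698, 583, 647 and 656. Of 17 clock genes 4 were variable, those 4 being Dbp, Hlf, Nr1d1 and Per1, where 9.8% of all genes were. As a whole the list did not set mouse 13 apart. Its score was 0.062 in mouse 13, 0.0071 in mouse 14, -0.014 in mouse 15, -0.135 in mouse 16 and 0.080 in mouse 17. Mouse 13 was highest in 8 of the 17 and lowest in 5, where it was in 30.6% and 29.7% of all genes. The times of day at which the muscles were taken are not given in the sources used here.

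Haemoglobin transcripts had the largest spread of list score (SD 2.805) and another order of mice. Hba-a1, an alpha chain, was at 986 in mouse 13, 9.02 in mouse 14, 419 in mouse 15, 10.7 in mouse 16 and 79.8 in mouse 17. Hbb-bs, a beta chain (chr7:103826534-103828096, minus strand, mm10), was at 1289, 28.2, 681, 25.25 and 85.8 in mice 13 to 17. Mice 13 and 15 were high, mouse 17 was between, and mice 14 and 16 were low. Hba-a2, a near-identical copy of Hba-a1 that may share its reads, was at 542, 10.1, 273, 13.6 and 30.6. Hbb-bt, a close relative of Hbb-bs, was at 280.5, 5.635, 118, 0 and 14.9. Mouse 13 was thus at least 96.3-fold above mouse 16 in Hbb-bt, with that library set to its floor of 3 reads. Hbb-bt passed the filter only through mouse 13. Alas2, the haem enzyme of red cell precursors, was below the filter at 50.3, 0, 14.4, 0.971 and 1.49. The summed normalized counts of the 4 haemoglobin genes were 3098, 53, 1491, 49.5 and 211, or at most 0.0175% of the reads of a library. These genes fell in cluster 1 through mouse 13, but mouse 15 was second, unlike in Igfbp5 or Col1a1. Without mouse 13 the spread of their score was 2.26 in place of 2.805. The part that retained blood has in the other genes of the cluster was not tested.

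Cluster 3 held genes that were highest in mouse 16 (205 of 206, where 16.6% of all genes were, as the clustering on these values made it). All 7 adipocyte markers and all 7 macrophage markers that passed the filter belonged to it. Plin1 (perilipin 1, chr7:79720218-79732903, minus strand, mm10), which coats the fat droplet of adipocytes, was at 113 in mouse 13, 4.51 in mouse 14, 26.7 in mouse 15, 1126 in mouse 16 and 75.3 in mouse 17. The hormone adiponectin (Adipoq) was at 147, 16.9, 59.98, 1452 and 136 in mice 13 to 17. Cfd (adipsin), a complement protease of fat, was at 749.5, 104, 143, 4949 and 619. In these 3 genes the mice ranked 16, 13, 17, 15 and 14 from high to low. Cidec, which enlarges fat droplets, was at 142, 15.8, 72.2, 3034 and 230.5. The hormone resistin (Retn) was at 39.65, 9.02, 7.78, 291 and 30.6. Leptin (Lep) was at 37.7, 0, 5.55, 211 and 14.2. Lep was thus at least 62.3-fold higher in mouse 16 than in mouse 14, with the latter set to its floor of 3 reads. Retn and Lep lay below the filter's minimum mean in every mouse but 16. They passed the filter only through mouse 16, so being highest there was fixed by the filter for these genes. Mouse 14 was lowest in 6 of the 7 markers, where 11.9% of all genes were lowest.

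Summed over the 7 adipocyte markers, normalized counts were 3155, 1772, 2519, 19743 and 3815 in mice 13 to 17, so the other 4 mice also differed among themselves. With mouse 16 left out, the spread of the adipocyte score was 1.31 in place of 2.24. Genes of lipid and glucose metabolism had the same high point. Pck1, which adipocytes use to make glycerol, was at 51.3 in mouse 13, 7.89 in mouse 14, 65.5 in mouse 15, 2891 in mouse 16 and 136 in mouse 17. Scd1, a desaturase, was at 846, 266, 192, 2867 and 491 in mice 13 to 17. Mouse 16 did not overlap with the other 4 in either of these. Mest, a gene of expanding fat, was at 18.4, 4.51, 12.2, 787 and 46.25, and passed the filter only through mouse 16. Hp (haptoglobin), a plasma protein that fat also makes, was at 170.2, 14.65, 32.2, 1224 and 63.4. The part that adherent or infiltrating fat has in these values was not tested.

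Macrophage markers were highest in mouse 16 over a narrower range. Cd68, a lysosomal glycoprotein, was at 64.8 in mouse 13, 100.3 in mouse 14, 48.9 in mouse 15, 252.5 in mouse 16 and 80.6 in mouse 17. Lyz2 (lysozyme) was at 352, 461, 363, 991.5 and 327 in mice 13 to 17. The CSF1 receptor Csf1r was at 147, 118, 104, 299 and 113. Mouse 16 was highest in these, and the other 4 were closer together. C1qa, of the complement component, was at 117, 116, 47.8, 222 and 91. Adgre1 (F4/80), which defines mouse macrophages, was below the filter at 27.1, 15.8, 17.8, 77.7 and 23.1, also highest in mouse 16. Summed over the 7 markers that passed, normalized counts were 1191, 1075, 769.8, 2448 and 860. Without mouse 16 the spread of the macrophage score was 0.36 in place of 0.69. Of genes in which mouse 16 was above the rest by a gap of over 0.71 of the log2 range, which none of the macrophage markers above met, the widest gap was in Car5b, a mitochondrial carbonic anhydrase, at 30.95, 12.4, 15.55, 324 and 32.1. B3galt2, a galactosyltransferase, followed at 39.65, 30.4, 26.7, 351.5 and 48.5, and Smoc1, a matricellular protein, at 39.65, 20.3, 27.8, 270 and 35.8. Car5b, B3galt2 and Smoc1 lay below the filter's minimum mean in every other mouse. They passed the filter only through mouse 16, so being highest there was fixed by the filter.

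Slow-fibre genes separated mice 14 and 15. Of 13 measured, 8 were variable (9.8% of all genes were), 12 were highest in mouse 14 (16.7%) and 12 lowest in mouse 15 (12.3%). The list score was -0.12 in mouse 13, 0.68 in mouse 14, -0.74 in mouse 15, 0.23 in mouse 16 and -0.053 in mouse 17. Myh7, the slow myosin heavy chain, was at 6391 in mouse 13, 9702 in mouse 14, 3106 in mouse 15, 7437 in mouse 16 and 5974 in mouse 17. Tnnc1, the slow troponin C, was at 896.5, 1471, 449, 956 and 856 in mice 13 to 17. Myl2, the slow light chain, was at 2073, 3084, 936, 1952 and 2113. Mouse 14 was highest and mouse 15 lowest in all 3, and mouse 13, lowest for the atrophy ligases, was at neither end. Mb (myoglobin) had the smallest spread of the list, at 8329, 13884, 6806, 8664 and 7661. Myh2, of the oxidative 2A fibres, had the same high and low mice, at 28119, 66430, 24901, 35496 and 26611. Without mouse 14 the spread of the list score was 0.41 in place of 0.52, and without mouse 15 it was 0.36.

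Bdh1, the enzyme that starts the use of ketone bodies in mitochondria (chr16:31422280-31458901, plus strand, mm10), was at 341 in mouse 13, 767.5 in mouse 14, 178 in mouse 15, 279 in mouse 16 and 287 in mouse 17, with a mean of 370.5 ± 229.6 (SD, n = 5). Mouse 14 was highest and mouse 15 lowest, as in the slow-fibre list. The variable genes nearest to Bdh1 in profile were P3h2, Ppara, Zdhhc23 and Slc25a29, at distances of 0.24 to 0.30 SD units. Tnnc1 (0.35) and Myh2 (0.39) were also among the nearest 10. All of these lay farther from Bdh1 than the 10 nearest genes lay from Fbxo32 (0.11 at most). Oxct1 (SCOT), the next enzyme of the pathway, was at 2995, 2634, 1888, 1856 and 1752 in mice 13 to 17. It was highest in mouse 13 and lowest in mouse 17, with an SD of 0.35. Of the 6 ketone body genes 2 were variable, Bdh1 among them, where 9.8% of all genes were. Without mouse 14 the SD of Bdh1 was 0.40 in place of 0.77, below the 0.5 used for variable genes.

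Cluster 5, high in mouse 14 and low in mouse 13, held 4 of the 5 variable heat shock genes. Csrp3 (muscle LIM protein, chr7:48830398-48848033, minus strand, mm10) was at 708 in mouse 13, 6033 in mouse 14, 1355 in mouse 15, 3241 in mouse 16 and 2304 in mouse 17. Ankrd2, a titin-bound protein of stretched muscle, was at 1048, 7521, 2751, 6119 and 5276 in mice 13 to 17. Ankrd1, its relative, was at 281, 1228, 534, 1515 and 765. Mouse 14 was highest in Csrp3 and Ankrd2 and mouse 16 in Ankrd1, with mouse 13 lowest in all 3. Of 18 heat shock and chaperone genes 5 were variable, 12 were highest in mouse 14 and 9 lowest in mouse 13. Over all genes these shares were 9.8%, 16.7% and 29.7%. With columns rescaled to equal totals, however, mouse 16 had the highest list score. Hspb7, a small heat shock protein of striated muscle, was at 6048, 29744, 10312, 24586 and 15042. Cryab (alpha B-crystallin), another, which fell in cluster 4, was at 10006, 22220, 9215, 19484 and 9807. Hspa1a (HSP70) was at 136, 536, 273, 331 and 199. Mouse 14 was highest in each of the 3. Hspe1, a mitochondrial chaperonin, did not vary beyond counting error (adjusted p = 0.57, chi-square test of the recovered reads). Atf3, a stress-induced transcription factor, was at 55.1, 513, 121, 459 and 101, high in mice 14 and 16. Egr1, an early response gene, fell in cluster 4, at 612, 231, 55.5, 222 and 101, highest in mouse 13 and lowest in mouse 15.

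Schwann cell genes marked mouse 17. All 4 markers that passed the filter were variable (9.8% of all genes were), highest in mouse 17 (18.4%) and in cluster 6. Mbp (myelin basic protein) was at 481 in mouse 13, 306.5 in mouse 14, 388 in mouse 15, 361 in mouse 16 and 1102 in mouse 17. Pmp22, of the same sheath (chr11:63128982-63159547, plus strand, mm10), was at 452, 326, 304, 294 and 687 in mice 13 to 17. Mouse 17 was highest in both, with mouse 13 second. Sox10, the factor that defines the lineage, was below the filter at 30.95, 28.2, 39.99, 33 and 64.15. Without mouse 17 the SD of Mbp was 0.27 in place of 0.73. Other genes of cluster 6 had other orders: Ppargc1a (PGC-1 alpha), a regulator of mitochondrial genes, was at 944, 2870, 2519, 1021 and 2506, low in mice 13 and 16. Nr4a3, an orphan receptor induced by exercise, was at 820.1, 1733, 2156, 613 and 1141, with the same 2 mice lowest.

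Mitochondrial, ribosomal and endothelial genes varied little. Of 79 nuclear OXPHOS subunits 0 were variable (9.8% of all genes were), although all 79 varied beyond counting error (by the chi-square test of the recovered reads). Lowest in mouse 16 were 70 of them, where 34.7% of all genes were. The scores were 0.16 in mouse 13, 0.14 in mouse 14, 0.024 in mouse 15, -0.23 in mouse 16 and -0.092 in mouse 17. This order depended on the scaling: with columns rescaled to equal totals the highest mouse was 14 and the lowest 17. Cox7a1, the muscle isoform of a cytochrome oxidase subunit, was at 738 in mouse 13, 693 in mouse 14, 635 in mouse 15, 548 in mouse 16 and 513 in mouse 17 (SD 0.22). Nnt, which makes mitochondrial NADPH, was at 2679, 5154, 4139, 3972 and 4418 in mice 13 to 17, lowest in mouse 13. Cox7a1 was highest in mouse 13 and lowest in mouse 17. Of 13 genes encoded by mitochondrial DNA 1 was variable, mt-Nd3, at 13967, 7084, 17456, 9966 and 4255. Of 78 cytosolic ribosomal protein genes 1 was variable, and Rplp2, with the smallest spread, was at 562, 571, 544, 560.3 and 623. Of 7 endothelial markers 0 were variable, and Cdh5 (VE-cadherin), which defines the cells, was at 1128, 1095, 1028, 1226 and 1125. The 5 muscle markers, all highest in mouse 13 and lowest in mouse 16, had scores from 0.50 to -0.48.

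**Figure D5:**
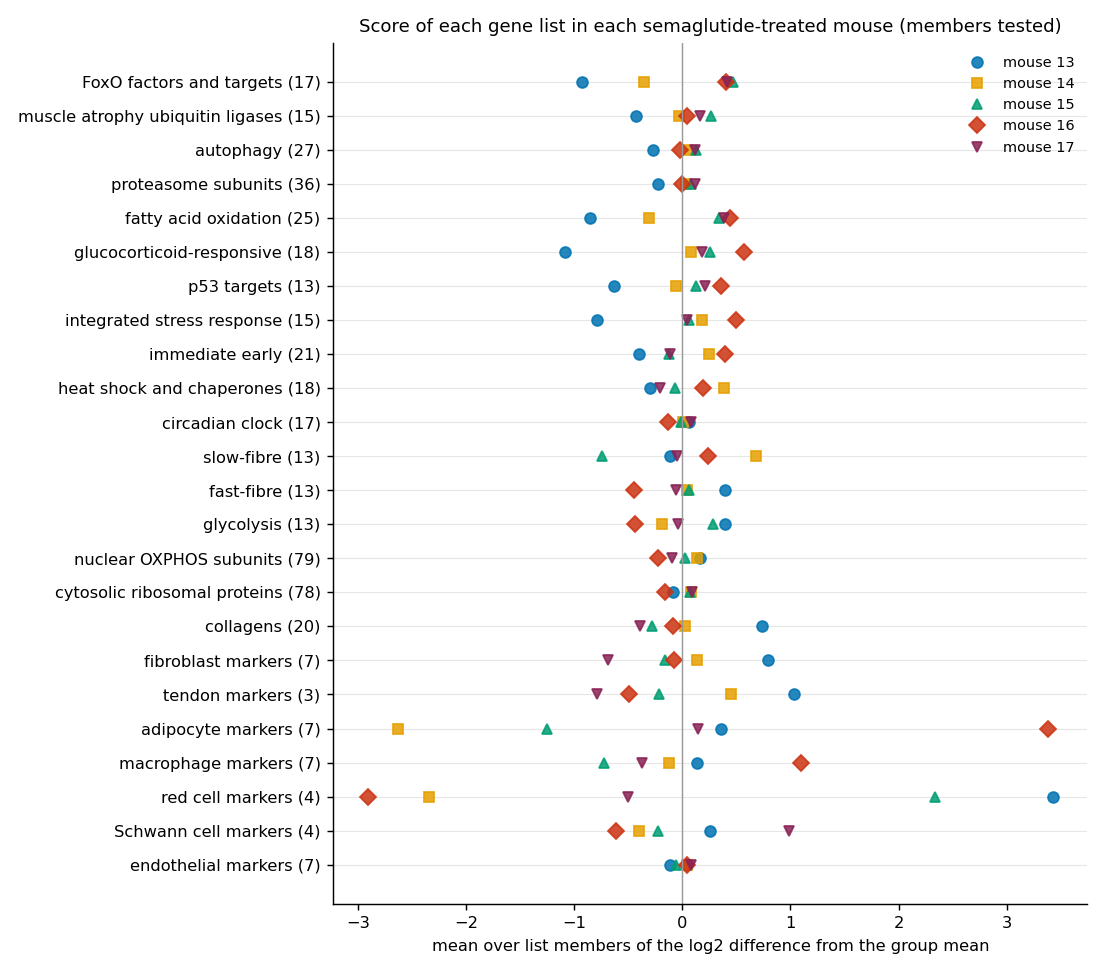
Score of selected gene lists in each semaglutide-treated mouse, 1 point per mouse: the horizontal axis is the mean over the members tested (number in parentheses) of the log2 difference from the group mean. FoxO, fatty acid oxidation and glucocorticoid-responsive lists place mouse 13 lowest, adipocyte and macrophage markers place mouse 16 highest, slow-fibre genes place mouse 14 highest and mouse 15 lowest, and Schwann cell markers place mouse 17 highest.

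A single mouse stood apart from the other 4 in 756 genes (7.5%), by a gap to the nearest mouse of over 0.71 of the log2 range. Mouse 13 stood above the rest in 141 of these and below them in 256, and mouse 16 above in 89 and below in 157. Mouse 14 was above in 30 and below in 22, mouse 15 above in 16 and below in 18, and mouse 17 above in 16 and below in 11. Zdhhc23, a palmitoyltransferase, was the gene with mouse 14 farthest above the next mouse, at 257 in mouse 13, 761 in mouse 14, 207 in mouse 15, 262 in mouse 16 and 243 in mouse 17. Glcci1, a glucocorticoid-induced transcript, was the one with mouse 17 farthest below, at 114 in mouse 13, 103 in mouse 14, 109 in mouse 15, 139 in mouse 16 and 23.1 in mouse 17. The other 4 mice differed little in both. Gm14288, a predicted gene, was listed at 0 in mouse 14, with levels of 74.5, 0, 160, 78.7 and 88 in mice 13 to 17. Gm49388, the gene with the largest SD of all (3.71), was listed at 0 in mice 14 and 15, with levels of 134, 0, 0, 80.6 and 113. Predicted genes can share reads with near copies, so these 2 values are uncertain.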

How the data were processed

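RNA was measured by stranded mRNA sequencing of frozen gastrocnemius, 1 library per mouse. The authors deposited 1 table of normalized counts (signal: reads on each gene divided by a size factor for the library). The submitters' processing notes name DRAGEN, DESeq2 and mm10, with no version of the tools.

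The column of each semaglutide-treated mouse was divided by the value of 1 read, found from its lowest values. Whole reads were recovered for 100% of values within 0.1 of a read (largest offset 0.0002149), giving 15319471 to 23498162 reads a library. Each library's floor was set at 3 reads. It entered only the ratios of the highest to the lowest mouse and the count of genes at or under it.

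Genes with a group mean of at least 50 were analysed as log2(normalized count + 1), and a fold on that scale understates the range of low genes. Folds in the text are ratios of normalized counts. Reads were compared over the 5 mice by a chi-square test of homogeneity with 4 degrees of freedom, checked on simulated data, with Benjamini-Hochberg adjustment and a threshold of 0.05. With 1 group there was no contrast, so the SD, principal components of centred values, 6 Ward clusters of genes with an SD of at least 0.5, scores of 34 gene lists (1 of them, neutrophil markers, with no member over the filter), orders of the mice and root mean square distances are descriptions. Correlations were not given over 5 mice. A mouse was called apart where its gap to the nearest other exceeded 0.71 of the range (Dixon).

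Genes named are those with the 10 largest SDs, the 6 largest loadings each way on components 1 and 2, the 3 farthest from the next mouse on each side in each mouse, the 10 nearest to Fbxo32, the largest and smallest SD of each list, and Fbxo32, Trim63, Cox7a1, Bdh1, Oxct1, Nnt and defining list members, of which not all are printed. The members, lists and tests were chosen with earlier results of these data known. The place of mouse 14, counts by order of mice 13 and 14, the comparison genes other than Fbxo32 (Pdk4, Igfbp5, Plin1, Csrp3, Bdh1, Hbb-bs) and some list members named were chosen after their values were seen. Some genes are not reported here.

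Gene positions are from GENCODE M21 (mm10) and promoters from RefSeq (GRCm38.p6). Python 3.11.15, numpy 2.4.6, pandas 2.3.3, scipy 1.17.1, matplotlib 3.10.9, R 4.3.3 and edgeR 4.0.16 (TMM factors only) were used. Alternatives tried were other pseudocounts, filters, thresholds, scalings, cluster numbers and leaving out each mouse.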

Additional observations from a re-analysis of the deposited data

Results flagged for a closer look

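Of 186 values looked at, 25 had 1 mouse apart from the other 4, by a gap to the nearest mouse that was over 0.71 of the range of the 5 on the log2 scale. Chance gives about 1 in 20 such groups. The genes were largely chosen for such patterns, so the count is no estimate of how common they are.

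Mouse 13 lay below the rest in 12 genes. The gap took 0.945 of the range in Arrdc2, 0.841 in Klf15, 0.829 in Fabp3, 0.801 in Eif4ebp1, 0.761 in Fkbp5, 0.759 in Glul, 0.758 in Cep131, 0.748 in Slc15a2, 0.744 in Acadl, 0.736 in Tgif1, 0.712 in Daxx and 0.7105 in Klhl38. Fbxo32, Trim63 and Pdk4 are not among them. Fbxo32 only just missed the rule, with a gap of 0.703 of the range, near that of Klhl38. In Trim63 the gap was 0.557, with mouse 14 between mouse 13 and the rest. In Pdk4 it was 0.074, with mouse 14 beside mouse 13. Mouse 13 lay above the rest in 5 genes, by 0.877 of the range in Nrep, 0.838 in Dbp, 0.720 in Mdga1, 0.714 in Col1a2 and 0.7102 in Gm4841.

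Mouse 14 lay below the rest by 0.875 of the range in Dcn, where that range was narrow, and by 0.851 in Gm14288, listed at 0 there. It lay above them by 0.8175 in Zdhhc23. Mouse 16 lay above the rest by 0.7715 of the range in B3galt2, 0.746 in Smoc1 and 0.717 in Car5b, and below them by 0.785 in Tnnt3, the fast troponin T, at 294724, 266638, 285361, 184992 and 285317 in mice 13 to 17. Mouse 17 lay below the rest by 0.829 of the range in Glcci1.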

How the results depend on the processing

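The number of genes with an SD of at least 0.5 (988 as reported) was 2081 with a mean of at least 10, 530 with a mean of at least 200 and 169 at an SD of 1; fewer or more genes were then examined. It was 863 with a pseudocount of 10, 1166 with equal totals, 995 with TMM factors and 549 to 1219 without 1 mouse, the lowest being without mouse 13. Genes beyond counting error by the chi-square test (8424) numbered 9661 and 6201 under the other filters, 8595 and 8368 under the other scalings and 7179 to 8204 without 1 mouse. Component 1 (53.2% of variance) took 45.5% with a mean of at least 10, 61.4% with a mean of at least 200 and 55.7% to 66.1% without 1 mouse, and component 2 (25.2%) took 22.6% to 31.1% without 1 mouse. With 8 clusters, cluster 1 (361 genes) was 195 and cluster 4 (71) was 44. With 4 clusters, clusters 4 and 6 (31) lay in a cluster of 463. Clusters 2, 3 and 5 held the same genes with 4 and 8. The cause of these shifts was not tested.

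For the SDs of single genes, 642 values without 1 mouse moved by less than the error of the SD and 73 by more. That error was itself computed from the values without 1 mouse, so this split does not show that the SDs are stable. Without mouse 13 the SD of Arrdc2 was 0.088 in place of 1.535, and that of Pdk4 2.26 in place of 2.58. Equal totals moved the median of all genes by 0.20 in mouse 16, and TMM by no more than 0.043 in any. Of the 33 lists with members, the scalings changed the highest mouse in 12 and the lowest in 6, and neither in 20. With equal totals mouse 16 became highest for atrophy ligases and for FoxO, autophagy, proteasome, heat shock and endothelial genes. Mouse 13 stayed lowest in all of these lists. Mouse 16 also became highest for lipogenesis and clock genes, with mouse 15 lowest. No paired analysis was possible because 1 group was used. Tissue content, time of collection and food intake of single mice were not analysed here, and 5 mice do not show how often such profiles occur. Depth limits the genes with 3 reads or fewer in a mouse, of which there were 9.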

Other observations

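Immediate early genes were variable in 8 of 21 measured, where 9.8% of all genes were. The list score was -0.40 in mouse 13, 0.24 in mouse 14, -0.12 in mouse 15, 0.40 in mouse 16 and -0.12 in mouse 17. Jun, an AP-1 subunit, was at 889 in mouse 13, 2805 in mouse 14, 3177 in mouse 15, 3054 in mouse 16 and 3096 in mouse 17. Fos, its partner, was at 53.2, 91.3, 44.4, 131 and 64.9 in mice 13 to 17. Dusp1, a phosphatase of MAP kinases, was at 577, 1015, 361, 819 and 315. Jun was low in mouse 13 alone, whereas Fos and Dusp1 were high in mice 14 and 16, the 2 mice with the highest Atf3.

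Denervation-responsive genes were variable in 5 of 15, where 9.8% of all genes were. The list scores spanned a narrow range, -0.10 in mouse 13, 0.073 in mouse 14, -0.052 in mouse 15, 0.11 in mouse 16 and -0.027 in mouse 17. Runx1, a factor of denervated muscle, was at 91.9, 92.4, 84.4, 206 and 88.0 in mice 13 to 17, so mouse 16 was alone at the top. Chrne, the adult acetylcholine receptor subunit, was highest in mouse 13, at 236, 115, 172, 80.6 and 120.

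Cholesterol synthesis genes were variable in 2 of 15 (13.3%, near the 9.8% of all genes), with 11 highest in mouse 13 (30.6% of all genes were). Dhcr7, the last enzyme of the pathway, was at 182, 93.5, 33.3, 59.2 and 51.5. Lipogenesis genes were variable in 4 of 14, against the same 9.8%. Srebf1 and Scd2 were highest in mouse 13, whereas Dgat2, which makes triglyceride, was lowest there, at 226, 596, 750, 1003 and 743.

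Interferon-responsive genes were variable in 2 of 12 (9.8% of all genes were), with list scores of -0.067, -0.069, -0.12, 0.20 and 0.063. Psmb8, an immunoproteasome subunit, was at 44.5, 38.3, 46.65, 98.1 and 53.7, and passed the filter only through mouse 16. The 4 smooth muscle and pericyte markers and the 2 satellite cell markers over the filter were not variable, with scores of 0.23, 0.11, -0.19, -0.37 and 0.22 and of 0.23, 0.60, -0.18, -0.47 and -0.19 in mice 13 to 17. Neither of the 2 neutrophil markers reached a group mean of 50.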
